A study of Mus musculus and synthetic construct with 15 samples.

Results

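A pooled reporter assay of heart enhancers held 3820 regions, 945 of them tagged ESC-Neg in their identifiers. In the DNA of the virus pool 1219 regions were scarce, with a mean under 10 counts over the 5 DNA libraries. Of the 1219, 405 were tagged ESC-Neg. Of the 1219, 488 had 0 counts in all 5 DNA libraries and 731 had at least 1. The 1219 are called scarce regions here, and the other 2601 are the remaining regions. Because DNA counts chose the scarce regions, every DNA value below is a description, and RNA was not divided by DNA. What was tested is the RNA of atrium against the RNA of ventricle, which played no part in the choice.

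The study addressed enhancers that act selectively in one heart chamber. A pool of 400 bp mouse sequences packaged in AAV9, an adeno-associated virus that enters heart muscle well, was delivered to wild-type mice at birth (postnatal day 0), whose atria and ventricles were taken at postnatal day 7. The libraries formed 3 groups of 5: RNA from atria of WT mice given the AAV9 library, RNA from ventricles of such mice, and DNA of the AAV9 library itself. The RNA libraries are labelled as cardiomyocytes, the protocols name no sort, and the counts are of reporters and not of the cells' own transcripts, so this label could not be checked against markers.

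An enhancer is a stretch of DNA that raises transcription of a gene, often from a distance and often in only some cell types. A massively parallel reporter assay reads many such stretches at once, by counting the RNA that carries or derives from each sequence. Atrial and ventricular heart muscle share most of their contractile program and differ in a smaller set of genes, among them the atrial light chain Myl4 and the atrial ligand Bmp10.

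The sequences of the regions themselves were not read here, because no genome sequence was used. For 17 scarce regions part of the sequence is covered by RefSeq promoter windows (GRCm38.p6, the build called mm10 in the submitters' processing notes), which run from 250 bases before an annotated start. The chamber test called 24.7% of all 3603 regions tested, 13.3% toward atrium and 11.4% toward ventricle. Of the 17 regions, 15 entered it, and it called 1 for atrium and 2 for ventricle. The bases before the start are shown for the atrial one, for 1 of the ventricular ones and, for contrast, for the region with the highest RNA among uncalled ones that hold a whole window. Each is 5′ to 3′ on the gene's strand, with matches to the searched motifs in capitals. RefSeq lists all 3 genes as long noncoding RNAs.
Gm45889 (chr7:142282964-142283213, + strand): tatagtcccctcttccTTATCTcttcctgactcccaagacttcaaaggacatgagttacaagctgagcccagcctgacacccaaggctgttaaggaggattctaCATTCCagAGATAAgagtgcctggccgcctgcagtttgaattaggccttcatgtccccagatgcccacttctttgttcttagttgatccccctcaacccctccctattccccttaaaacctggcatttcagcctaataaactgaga
Gm41581 (chr17:43744694-43744806, - strand): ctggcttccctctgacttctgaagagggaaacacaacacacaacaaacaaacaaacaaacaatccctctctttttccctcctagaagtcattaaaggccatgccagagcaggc
Lincred2 (chr4:119050756-119051005, + strand): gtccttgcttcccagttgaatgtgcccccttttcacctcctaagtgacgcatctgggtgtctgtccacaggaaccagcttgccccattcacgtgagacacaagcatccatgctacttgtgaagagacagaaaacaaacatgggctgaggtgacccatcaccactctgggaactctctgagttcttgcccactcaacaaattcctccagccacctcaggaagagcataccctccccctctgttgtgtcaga
Both strands were searched for 6 short motifs of factors that act in heart muscle. Of 32536 RefSeq promoters cut to the same 250 bases, 12.6% held the TEAD motif GGAATG, 9.97% the GATA motif AGATAA, 3.33% the T-box motif GGTGTGA, 3258 of the 32536 the NKX2-5 motif CACTTNA, 3.22% the MEF2 motif (by its palindromic consensus with any 4 inner bases) and 4.09% the ERR motif AAGGTCA. The Gm45889 window held 1 TEAD match and 2 GATA matches, which did not overlap each other. The other windows shown held none, and that of Gm41581 is shorter than 250 bases. A match describes letters only.

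The region over the Gm45889 window (chr7:142282849-142283248, tagged p300AVB) had 1 DNA count in all and 0 counts in both replicate 1 RNA libraries. Its CPM (counts scaled to a library of 1000000, here after TMM scaling between libraries) was 1010, 1190, 1110 and 1050 in atrial replicates 2 to 5 and 413, 398, 421 and 444 in ventricular replicates 2 to 5. The ranges were far apart, and the fitted log2 atrium over ventricle was 1.38 ± 0.09 (SE), with an edgeR adjusted p of 7.2e-08. Here and after every log2 difference below, the SE is an approximate one. It is the absolute log2 difference divided by the square root of the edgeR F statistic. The nearest protein-coding gene is Gm10013 at 2.11 kb, and the keratin-associated gene Krtap5-1 lies at 13.3 kb. The region over the Gm41581 window lies inside Cyp39a1, an oxysterol hydroxylase (chr17:43744407-43744806, tagged vMTF+p300), and had no DNA count. It had 176 ± 21.0 CPM over atrial and 241 ± 18.3 over ventricular libraries (mean ± SD, 4 libraries each, as in all CPM values with ± below). Its log2 difference of -0.45 had an edgeR adjusted p of 0.0471, which ran from 0.0404 to 0.129 over the 8 fits that left out 1 library, of which only the one without atrial replicate 3 kept the call. The Lincred2 region (chr4:119050722-119051121, tagged p300AVB), at 81.3 to 171 CPM in atrium against 71.0 to 111 in ventricle, did not pass the test (edgeR adjusted p = 0.365).

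The scarce regions were well represented in the RNA of replicates 2 to 5 in both chambers. In replicates 2 to 5 their share of all counts was 10.7% to 12.2% for atrial libraries and 12.4% to 12.9% for ventricular ones, against 0.071% to 0.0966% in DNA. In replicate 1 they held 0.883% of atrial and 1.08% of ventricular counts. Replicates 2 to 5 stood apart from replicate 1 and from DNA in both chambers, and replicate 1 lay between them. The median CPM by library total over all 1219 was 27.9 ± 2.13 for atrial and 33.5 ± 1.39 for ventricular libraries of replicates 2 to 5, and 0 in each replicate 1 and DNA library. Among the remaining regions it was 139 to 142 in the same atrial and 131 to 134 in the same ventricular libraries. Total counts were 1718563 to 2369985 in these atrial, 2862596 to 3781726 in these ventricular, 877773 and 1271527 in the replicate 1 and 2312820 to 2958271 in the DNA libraries.

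**Figure D1:**
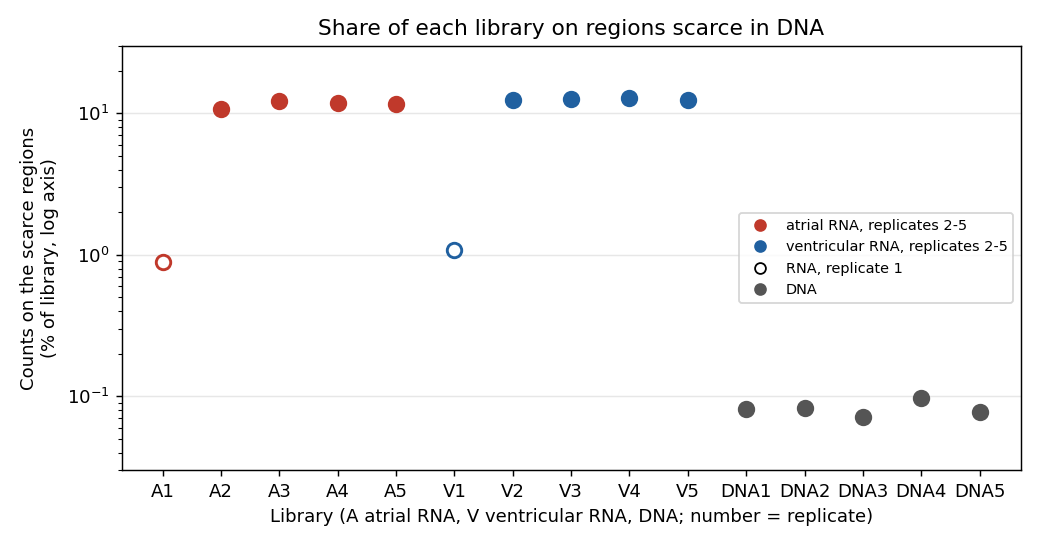
Percentage of each library's counts that fell on the scarce regions (vertical log axis) for the 15 libraries; filled points are atrial RNA, ventricular RNA and DNA, open points replicate 1 RNA. Replicates 2 to 5 lie at 10.7% to 12.9%, replicate 1 near 1% and DNA under 0.1%.

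Nearly all scarce regions gave some RNA. A count was present in all 8 RNA libraries of replicates 2 to 5 for 1070 of 1219 (87.8%), and at least 10 counts in each for 821 (67.4%). Only 8 had 0 counts in all 8 libraries. Of the 488 with no DNA count, 419 had a count in all 8 RNA libraries and 340 (69.7%) had at least 10 in each. A count of 0 over the 5 DNA libraries allows up to 0.236 CPM at 3 counts over the group, and up to 1.3 CPM in the shallowest DNA library, for counting error only. In replicate 1, 631 scarce regions were at 0 in both chambers. Of these, 472 had at least 10 counts in each of the 8 other RNA libraries, and 296 of the 472 also had no DNA count.

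Levels among the scarce regions were spread widely. The mean CPM over the 8 libraries was 0.792 at the 5th percentile, 32.4 at the median and 363 at the 95th, with a maximum of 3530. The remaining regions had a median of 141. Counts were concentrated, with the 100 highest regions holding 53.4% of the RNA counts of all scarce regions, and 43 exceeded a mean of 500 CPM, 8 of which had no DNA count. Across the 1219 regions, log2(CPM + 1) correlated at 0.92 to 0.93 between atrial libraries of replicates 2 to 5, at 0.95 to 0.96 between ventricular ones and at 0.92 to 0.93 between chambers. With the DNA libraries the same RNA libraries correlated at -0.10 to 0.09, and with replicate 1 RNA at -0.10 to -0.02. Replicate 1 RNA correlated with DNA at 0.54 to 0.66. Among the remaining regions RNA and DNA correlated at 0.64 to 0.72. These are descriptions across regions, which are not replicates, and the choice of regions with hardly any DNA count narrows the DNA axis.

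The scarce region with the highest RNA of those without a DNA count lies inside Akap6, which anchors protein kinase A at the nuclear envelope of heart muscle (chr12:52876929-52877328, tagged vMTF-p300). It had 2590, 3650, 3230 and 2850 CPM in atrial and 2320, 2190, 2490 and 2310 CPM in ventricular replicates 2 to 5, and 0 counts in replicate 1. All 4 atrial values exceeded the ventricular ones, with a log2 difference of 0.41 ± 0.10 (edgeR adjusted p = 0.00564). All 5 regions of the pool assigned to Akap6 were scarce, and of the 3 tested this was the 1 called. A region 75.1 kb from Garem1 (tagged vMTF+p300) averaged 1330 ± 118 CPM in atrium and 2010 ± 167 in ventricle (log2 -0.60 ± 0.09, adjusted p = 0.00015 by edgeR). A region 4.46 kb from Ube4b, a ubiquitin ligase (chr4:149323756-149324155), averaged 964 ± 47.5 and 763 ± 50.1 CPM (log2 0.34 ± 0.09, edgeR adjusted p = 0.0119). A region inside Tmod1, which caps the actin filaments of the sarcomere (chr4:46073722-46074121), had 765, 872, 657 and 761 CPM in atrium and 423, 414, 478 and 424 in ventricle. Its ranges did not overlap (log2 0.81 ± 0.11, edgeR adjusted p = 7.2e-05). The other 2 of the 6 highest without a DNA count, inside Pitpnm2 (chr5:124173563-124173962) and on chromosome 14 (chr14:104336793-104337192), had log2 differences of -0.07 ± 0.10 and 0.10 ± 0.18 and were not called. Of these 6 regions, 5 carry the tag vMTF and 1, that on chromosome 14, carries aMTF.

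Among the 4 highest scarce regions with at least 1 DNA count was one inside Scn10a, a sodium channel gene (chr9:119632173-119632572, tagged vMTF+p300). It had 3410, 4180, 4100 and 3390 CPM in atrial and 2440, 2160, 2280 and 2200 in ventricular replicates 2 to 5. Every atrial library was above every ventricular one, with a log2 difference of 0.73 ± 0.08 (edgeR adjusted p = 1.2e-05). The highest mean of all scarce regions, 3530 CPM over the 8 libraries, came from a region on chromosome 19 (chr19:49896341-49896740), tagged ESC-Neg but placed by the deposited group column in TF1-2. Its CPM was 3490 ± 311 for atrial and 3570 ± 140 for ventricular libraries, and the 2 DNA counts it received were 1 each in separate libraries. Its chamber difference was -0.03 ± 0.07 and did not pass. A region 7.25 kb from Chit1, a chitinase gene, and 24.8 kb from Btg2 (chr1:134103792-134104191, tagged GeneAVB) averaged 1260 ± 81.5 CPM in atrium and 1990 ± 102 in ventricle (log2 -0.67 ± 0.08, edgeR adjusted p = 1.6e-05). A region 42.9 kb from Far1, a peroxisomal reductase (chr7:113614210-113614609), averaged 1420 ± 148 and 1490 ± 97.8 CPM and was not called.

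The test of atrium against ventricle covered the 3603 regions that averaged 10 or more counts over the 8 RNA libraries, of which 1022 were scarce. An adjusted p under 0.05 (Benjamini-Hochberg over all 3603) was required, which 24.7% of all regions tested met, 13.3% toward atrium and 11.4% toward ventricle. Of the 1022 scarce regions, the atrium had the higher RNA in 60 (5.87%), the ventricle in 118 (11.5%), and 844 were not called. Over all RNA levels together, the ventricular share thus lay near the background and the atrial share under it. Within each bin of RNA count, under TMM scaling, the ventricular share was higher in scarce than in remaining regions. It was 10.8% against 3.78% at 100 to under 300 counts and 20.1% against 11.5% at 300 to under 1000. At 1000 counts or more it was 41.0% against 27.1%. Among the 2581 remaining regions tested, 418 (16.2%) were called for atrium and 293 (11.4%) for ventricle. The median log2 difference was -0.17 in scarce and 0.07 in remaining regions. The filter uses raw counts, which are more numerous in the deeper ventricular libraries. With no filter the counts were 62 and 115 with the same median. Of the 118 ventricular calls, 7 had an atrial mean under 10 counts and passed the filter through the ventricle alone, and 1 of the 60 atrial calls passed through the atrium alone. Among all scarce regions tested, 54 passed through the ventricle alone and 3 through the atrium alone.

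How the libraries are scaled sets which chamber has more calls. Scaled on the regions that the group column calls Neg, the scarce regions had 98 calls in atrium and 64 in ventricle, and the atrial share of calls rose from 33.7% to 60.5%. In the remaining regions it went from 58.8% to 78.1%. That scaling moved the median of all regions by 0.17, so the median of the scarce regions became 0.00. The median of scarce minus that of remaining regions was -0.25, and -0.19 without atrial replicate 2. Leaving out ventricular replicate 2 left 37 and 70 calls, and adding replicate 1, where most scarce regions are absent, left 11 and 26. In these bulk samples, fewer cells of a type and less RNA per cell cannot be told apart. Nothing in the labels says that replicates came from separate animals, so p-values measure the spread between these libraries, which may be technical.

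The biological coefficient of variation between libraries in the fit had a median of 31.3% in scarce and 22.3% in remaining regions, which were not matched for their RNA level. Calls were fewer where RNA counts were low: 16 of 279 scarce regions with a mean of 10 to under 50 counts were called, against 37 of 61 with at least 1000, and among remaining regions 1 of 170 and 314 of 568 in the same bins. In that top bin 12 scarce regions were called for atrium and 25 for ventricle, and 160 and 154 remaining ones. The median log2 difference was negative in each of the 5 bins of RNA count, from -0.28 in the lowest to -0.10 in the bin of 300 to under 1000 counts. All 4 atrial and 4 ventricular values were apart in 197 scarce regions (background 26.3%), of which 150 were also called (background 21.2%). A difference of at least 2-fold was reached by 31 of the atrial and 45 of the ventricular calls, against 139 and 59 among the 2581 remaining regions. Regions with no DNA count at all had 19 calls in atrium and 47 in ventricle of 415, and those with a DNA count 41 and 71 of 607, with medians of -0.18 and -0.17.

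**Figure D2:**
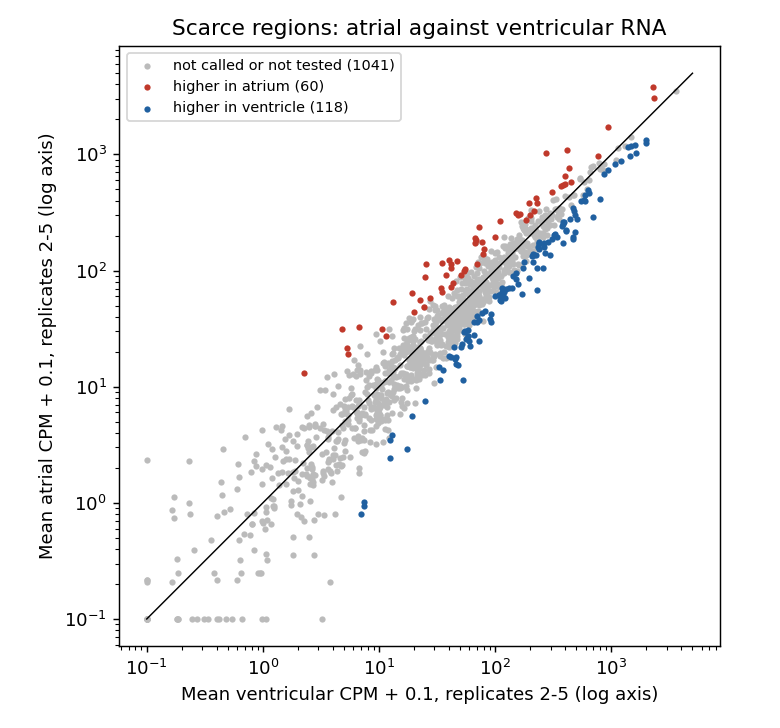
Mean CPM (after TMM scaling, plus 0.1) of each of the 1219 scarce regions in ventricular (horizontal) and atrial (vertical) replicates 2 to 5, both on log axes, with the line of equal values. The 60 regions higher in atrium are red, the 118 higher in ventricle blue and all others grey; calls are fewer at low CPM.

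By identifier tag, the chamber calls of the scarce regions split in different ways. Regions tagged aMTF had 18 calls in atrium and 7 in ventricle of 139 tested, and those tagged vMTF 17 and 34 of 191. The remaining regions with these tags split 98 and 36 of 417 and 64 and 109 of 518, so the order of the chambers was the same in both sets. Scarce GeneAVB regions had 9 calls for atrium and 26 for ventricle of 211, which turned to 19 and 17 under Neg scaling, while the remaining ones had 185 and 91 of 860. Scarce p300AVB regions had 14 and 16 calls of 151, with no order that held: they had 21 and 11 under Neg scaling, 18 and 14 with DESeq2, 15 and 12 with a minimum of 50 counts and 14 and 13 without atrial replicate 2 or 3. The remaining p300AVB regions had 87 and 23 of 418. Scarce ESC-Neg regions had 6 and 39 calls of 362, which turned to 18 and 14 under Neg scaling, a scaling on largely the same tag, against 28 and 49 of 536. Under Neg scaling the aMTF regions kept the order of the chambers, at 26 and 4 calls. The vMTF calls became nearly even under that scaling, at 20 and 21. Without ventricular replicate 2 the scarce regions had 12 and 4 calls for aMTF, 11 and 22 for vMTF, 7 and 16 for GeneAVB, 10 and 8 for p300AVB and 1 and 22 for ESC-Neg. Leaving out other libraries also moved single counts: without ventricular replicate 3 the aMTF calls for atrium were 11 and the ESC-Neg calls 2 and 24, without replicate 4 the p300AVB calls for ventricle were 10 and those of ESC-Neg 22, and without replicate 5 the vMTF calls for atrium were 11. Without atrial replicate 2 or 4 the ESC-Neg calls for atrium were 11 or 10. With all 5 replicates edgeR called 0 ESC-Neg regions (7 at an unadjusted p under 0.05). The median log2 differences of scarce regions were 0.11 for aMTF, -0.36 for vMTF, -0.14 for GeneAVB, 0.01 for p300AVB and -0.21 for ESC-Neg. These counts were not tested against each other, and a region can carry more than 1 tag (44 scarce regions do). Of the 5 regions tagged BNA-TF_andH3K27ac that were scarce, 3 were tested and 0 called.

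**Figure D3:**
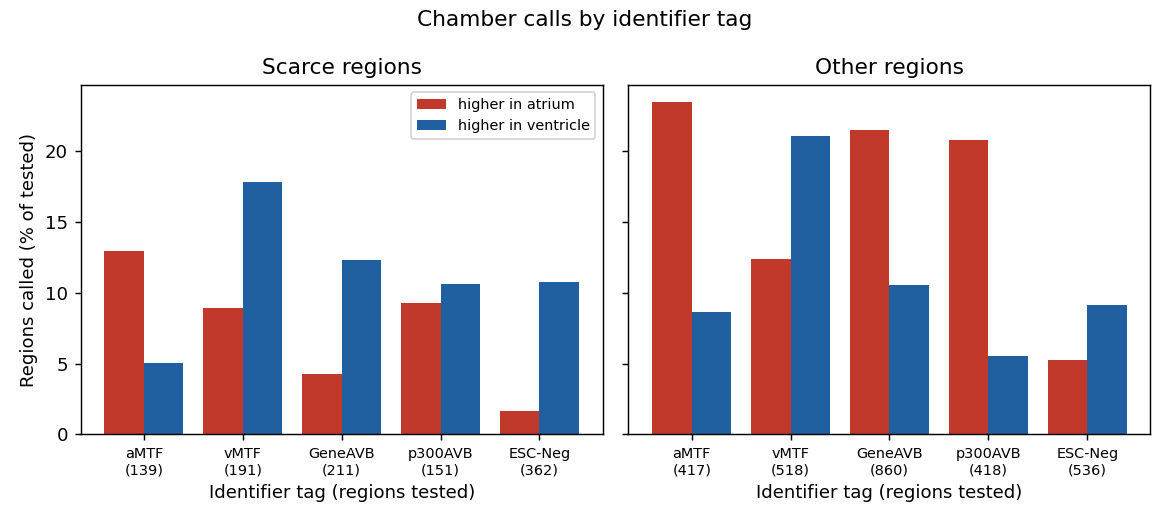
Percentage of tested regions called higher in atrium (red) or in ventricle (blue) under TMM scaling, by identifier tag, for scarce regions (left) and remaining regions (right), with the number tested in parentheses. Scarce GeneAVB and ESC-Neg regions have more ventricular than atrial calls, which Neg scaling turns, and scarce aMTF regions more atrial than ventricular calls.

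Scarcity itself was uneven over the tags. It took in 42.9% of the 945 ESC-Neg regions, 31.2% of vMTF, 30.3% of p300AVB, 29.2% of aMTF and 23.2% of GeneAVB regions. The scarce ESC-Neg regions had the highest median RNA of these 5 scarce sets, 44.1 CPM, and p300AVB the lowest, 18.8 CPM. Among remaining regions the ESC-Neg median was instead the lowest of these 5 tags, at 84.4 CPM against 115 to 185. RNA was not divided by DNA, so these levels are not activities. In the deposited group column, 44.7% of the 848 Neg regions were scarce, against 26.3% to 31.3% of the other groups. The calls in atrium and ventricle among scarce regions were 29 and 36 of 333 for MTF or P300 and 5 and 32 of 339 for Neg. They were 2 and 12 of 85 for TF1-2, 7 and 12 of 70 for TF3-4, and 17 and 26 of 195 for spMTF or spP300. The remaining regions had 242 and 140 of 1160, 19 and 41 of 465, 29 and 13 of 227, 46 and 18 of 212, and 82 and 81 of 517 in these groups. Over all regions tested, 13.3% were called for atrium and 11.4% for ventricle. All these counts are under TMM scaling. By chromosome the scarce share ran from 25.4% on chromosome 2 to 37.3% on chromosome 12 among the autosomes, and on X it was 14 of 30.

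The calls with the smallest p in a tag and direction follow where not yet given. For vMTF in atrium it was a gene-poor stretch of chromosome 1, more than 100 kb from any protein-coding gene (chr1:77062497-77062896, tagged vMTF+p300), at 833, 1080, 1090 and 1140 CPM in atrial and 276, 251, 273 and 306 in ventricular replicates 2 to 5. Every atrial value was well above every ventricular one, with a log2 difference of 1.90 ± 0.12 (edgeR adjusted p = 3.2e-08). For GeneAVB in atrium it was a region between Arhgap25, 8.79 kb away, and Bmp10, the atrial ligand, 15.2 kb away (chr6:87449558-87449957, also tagged p300AVB). It had 229, 247, 253 and 214 CPM in atrium and 66.6, 77.2, 72.8 and 71.2 in ventricle. The 2 ranges were apart, the log2 difference was 1.71 ± 0.17 (edgeR adjusted p = 3.3e-06), and replicate 1 had 171 atrial and 92 ventricular counts. For aMTF in atrium a region inside Lars, a tRNA synthetase gene, averaged 1710 ± 147 against 945 ± 77.8 CPM (edgeR adjusted p = 6e-06).

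In ventricle the smallest p belonged, among GeneAVB regions, to one inside Elmod3 and 7.84 kb from the actin-capping gene Capg (chr6:72570624-72571023). With no DNA count and none in replicate 1, it had 232, 309, 288 and 320 CPM in atrium and 709, 704, 617 and 729 in ventricle. All ventricular values exceeded the atrial ones, with a log2 difference of -1.26 ± 0.13 (edgeR adjusted p = 3.3e-06). Among ESC-Neg regions it was one inside Myh13, a myosin heavy chain of extraocular muscle (chr11:67345424-67345823), at 160, 188, 191 and 215 CPM in atrium and 484, 511, 434 and 446 in ventricle. Every ventricular library was well above every atrial one, at a log2 difference of -1.32 ± 0.14 (edgeR adjusted p = 5.3e-06). Among vMTF regions it was one near Smim3, at 410 ± 30.6 against 798 ± 52.8 CPM (log2 -0.96 ± 0.10). Regions inside Def8 (chr8:123465420-123465819, tagged p300AVB) and on chromosome 9 (chr9:113387508-113387907, tagged aMTF-p300) had log2 differences of -1.15 ± 0.17 and -0.81 ± 0.16. The ESC-Neg region with the smallest p in atrium, near the sulfatase gene Sulf2 (chr2:166170193-166170592), averaged 305 ± 98.8 and 165 ± 48.5 CPM with overlapping libraries. Its adjusted p by edgeR was 0.0154 and reached 0.0535, with the call lost without ventricular replicate 2 or 3.

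**Figure D4:**
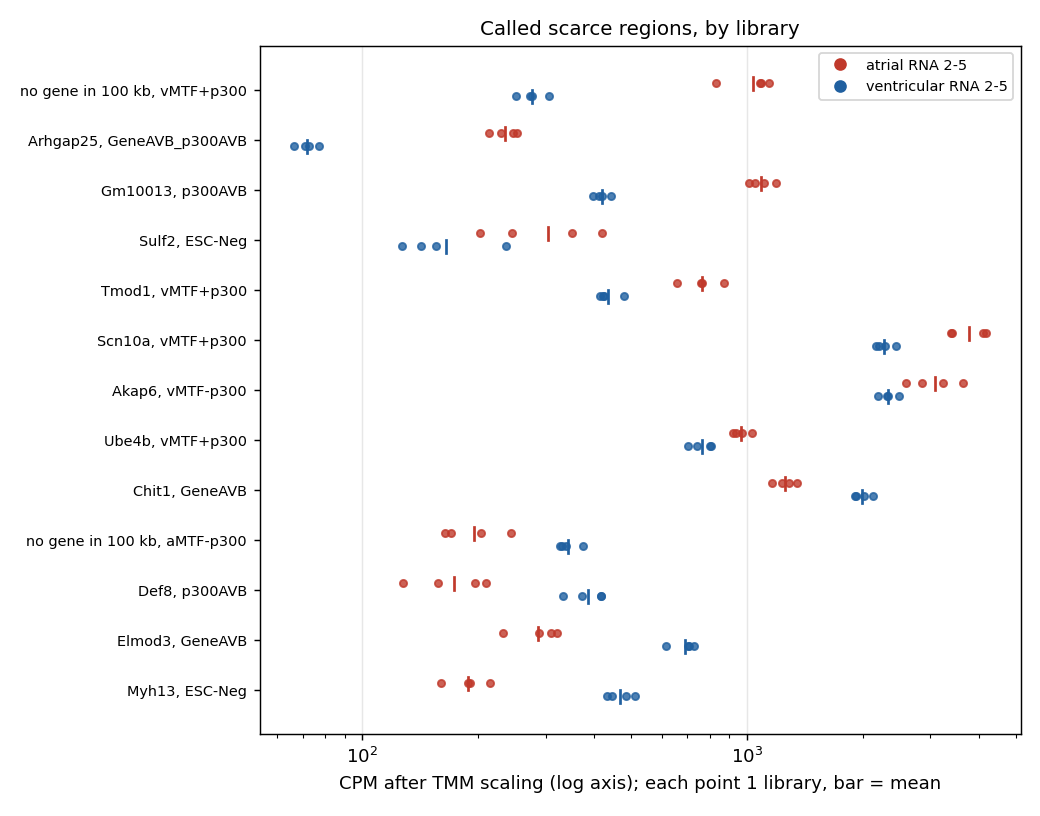
CPM after TMM scaling (log axis) of 13 called scarce regions, chosen by high RNA or by the smallest p in a tag and ordered by log2 difference. Regions on chromosome 18 (nearest Garem1, inside Lars and near Smim3) met the same rule and are not drawn. Each point is 1 library of replicates 2 to 5, atrial in red and ventricular in blue, and the bar is the mean of 4. The 2 chambers overlap only in the region near Sulf2.

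The largest atrial excesses with no overlap were mostly in regions of low RNA. A region of chromosome 14 far from any protein-coding gene (chr14:71203342-71203741, tagged aMTF+p300) had 23.1, 8.98, 32.3 and 61.7 CPM in atrium and 3.78, 4.48, 5.42 and 5.15 in ventricle. Its atrial libraries were all higher but spread several-fold, and the log2 difference was 2.72 ± 0.55 (edgeR adjusted p = 0.00207). A region 1.22 kb from Tyms, thymidylate synthase, and 17.4 kb from Il6 (chr5:30037130-30037529, tagged p300AVB) had 108, 126, 128 and 92.6 CPM in atrium and 20 to 32.0 in ventricle. The groups were clearly apart at a log2 difference of 2.16 ± 0.25 (edgeR adjusted p = 1.6e-05), and the counts of replicate 1 were 161 in atrium and 21 in ventricle. Regions inside Ldah, a lipid droplet hydrolase (chr12:8266282-8266681), and inside Sgk3, a kinase (chr1:9859207-9859606), had log2 differences of 2.02 ± 0.37 and 1.82 ± 0.31. Some calls in this group rested on few libraries. The ESC-Neg region near Cyp3a13 (chr5:137933960-137934359) had 94.9 CPM in atrial replicate 5 and 10.6 to 14.5 in the others. Its adjusted p by edgeR ran from 0.0137 to 0.296 when 1 library was left out, and the call was lost without atrial replicate 5 or ventricular replicate 2, 3 or 4. The ESC-Neg region near Sall1 (chr8:89015601-89016000; adjusted p by edgeR up to 0.101) lost its call without atrial replicate 4 or ventricular replicate 3, 4 or 5. That inside Kif13a (chr13:46883384-46883783; up to 0.0641) lost it without atrial replicate 2 or ventricular replicate 2, 3 or 5.

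The largest ventricular excesses likewise began with regions of a few CPM. Those at Ehd4, chr1:13872521-13872920, Arid1b, Lmntd1 and Pdzd2 had an atrial mean under 10 counts and entered the test through the ventricle alone. Their mean raw count thus had to be lower in atrium, and their values, calls and p-values are a description only. Of the 54 scarce regions that entered in this way, 7 were called for ventricle and 0 for atrium. A region inside Ehd4, a gene of endocytic recycling (chr2:120102734-120103133, tagged GeneAVB), had 0.592, 1.28, 0.923 and 0 CPM in atrium and 14.1, 3.64, 1.55 and 8.37 in ventricle. The ranges nearly touched, the log2 difference was -3.12 ± 0.94, and the call was lost without atrial replicate 5, at an edgeR adjusted p of 0.0511. Without ventricular replicate 2 or 5 the Ehd4 region averaged under 10 counts and was not tested, so only 6 of 8 such fits held it. An ESC-Neg region on chromosome 1 (chr1:13872521-13872920) and a region inside Arid1b, a chromatin remodeller subunit (chr17:5258282-5258681), had log2 differences of -3.01 ± 0.78 and -2.95 ± 0.78. DESeq2 gave these 2 and the Ehd4 region no adjusted p, at log2 differences of -3.06, -2.98 and -3.22. A region inside Lmntd1 (chr6:145450060-145450459) had 2.79 ± 1.07 CPM in atrium and 17.3 ± 4.40 in ventricle (log2 -2.64 ± 0.55). A region 12.3 kb from Inpp1, an inositol phosphatase (chr1:52829778-52830177, tagged p300AVB), had 10.1, 15.8, 13.8 and 5.34 CPM in atrium and 51.1, 60.1, 53.5 and 47.0 in ventricle. Its ventricular values were all several times the atrial ones (log2 -2.21 ± 0.36, edgeR adjusted p = 0.00037), and replicate 1 had 5 atrial and 86 ventricular counts. The ESC-Neg region inside Pdzd2 (chr15:12734461-12734860) and the p300AVB region near the integrin gene Itgb1 (chr8:128662989-128663388) had log2 differences of -1.81 ± 0.63 and -1.77 ± 0.57. Their adjusted p by edgeR reached 0.126 and 0.0857, and the call was lost in 7 and 6 of 8 fits without 1 library, in both regions without atrial replicate 5 or any 1 of the ventricular replicates, for Pdzd2 also without atrial replicate 2 or 3 and for Itgb1 without atrial replicate 4.

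A region inside Cep85l lies 4.68 kb from Pln, the phospholamban gene that restrains the calcium pump of heart muscle (chr10:53332808-53333207, tagged GeneAVB). It had 75.8, 64.6, 45.2 and 86.0 CPM in atrium and 202, 196, 231 and 286 in ventricle. The ventricular libraries were all higher, at a log2 difference of -1.76 ± 0.22 (edgeR adjusted p = 3.9e-05). With a mean DNA count of 9.8 it also stands just inside the limit, together with regions on chromosome 2 (chr2:159732485-159732884) and inside Tmem132d (chr5:128330410-128330809). Just outside it, at a mean DNA count of 10, were regions near Thnsl1 and inside Kank1 and Mllt3. The mean atrial and ventricular CPM was 23.0 and 17.1 for the chromosome 2 region and 50.7 and 66.0 for Tmem132d, against 53.8 and 16.4 for Thnsl1, 24.0 and 25.6 for Kank1 and 7.52 and 4.43 for Mllt3.

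Lists of heart genes were matched to the gene nearest each region, and their counts stand beside a background of 24.7% of regions called, 13.3% toward atrium and 11.4% toward ventricle. The atrial list of 20 genes was nearest to 11 scarce regions, of which 10 were tested, 2 were called for atrium and 0 for ventricle (median log2 -0.17, as over all scarce regions tested). Of those 2, the region inside Myl4, the atrial light chain (chr11:104571394-104571793), had 250, 209, 149 and 101 CPM in atrium and 71.4, 75.8, 75.2 and 85.4 in ventricle. No atrial library fell into the ventricular range (log2 1.21 ± 0.25, edgeR adjusted p = 0.00242). The region inside Dkk3, a secreted protein of the Dickkopf family (chr7:112149115-112149514, with the tags GeneAVB, aMTF+p300 and p300AVB), had 77.0, 88.5, 134 and 119 CPM in atrium and 42.2, 34.7, 26.1 and 63.4 in ventricle. Its groups were also apart (log2 1.33 ± 0.30, edgeR adjusted p = 0.00398), and it had no DNA count. An ESC-Neg region 8.03 kb from Tbx5, a T-box factor of the atria, had a log2 difference of -0.44 ± 0.28 and was not called. All 4 regions of Pam were scarce, 3 were tested and 0 were called. The ventricular list had 2 scarce regions, 12.2 kb from Hspb8 and 96.4 kb from Gja1, with log2 differences of -0.55 ± 0.22 and 0.34 ± 0.19 and 0 calls.

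Of the 4 scarce regions nearest a cardiac transcription factor of the list, 1 was called: a region 10025 bp from Ankrd1, a stress-responsive cofactor of heart muscle (chr19:36129670-36130069, tagged vMTF+p300), at 650 ± 201 CPM in atrium and 400 ± 37.1 in ventricle (log2 0.70 ± 0.18, edgeR adjusted p = 0.0109). Regions nearest Tbx3 and Foxp1 had log2 differences of -0.61 ± 0.30 and 0.37 ± 0.34. Of 7 scarce regions tested near sarcomere and Z-disc genes, 1 was called, 5.59 kb from Csrp3, the muscle LIM protein (chr7:48853442-48853841, tagged GeneAVB). It had 824, 1100, 993 and 968 CPM in atrium and 1330, 1460, 1600 and 1380 in ventricle. Ventricular libraries were all higher (log2 -0.57 ± 0.10, edgeR adjusted p = 0.00057). A second scarce region, inside Csrp3 (chr7:48845179-48845578), had a log2 difference of -0.53 ± 0.23 and one inside Rbm20, a splicing factor of titin, -0.63 ± 0.23, and neither passed. Among ion channel and calcium genes 9 were tested, with the Scn10a region higher in atrium and 1 inside Camk2d, a calmodulin kinase (chr3:126723552-126723951), higher in ventricle at 25.8 ± 6.85 against 55.7 ± 12.4 CPM. The edgeR adjusted p for Camk2d was 0.0159 and rose to 0.0626 without ventricular replicate 5. The region near Slc8a1, the sodium-calcium exchanger, had a log2 difference of -1.44 ± 0.51 and did not pass (edgeR adjusted p = 0.0518). The only scarce region of the endothelial and stromal list, near Col3a1, was not called either.

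Replicate 1 gave a separate reading for the few scarce regions it held. At least 10 counts in both replicate 1 libraries were found in 165 scarce regions, all of them tested in replicates 2 to 5. The sign of the log2 difference was the same in replicate 1 for 120 of the 165. Of the 34 called there, all 13 higher in atrium were also higher in atrial replicate 1, and 20 of the 21 higher in ventricle were higher in ventricular replicate 1. The exception lay inside Hdac9, a histone deacetylase gene, with log2 differences of -0.87 in replicates 2 to 5 and 0.05 in replicate 1, and is named because it was the only one. Over the 165 the log2 differences correlated at 0.66, a description across regions. With 1 library per chamber, replicate 1 on its own has no replicate check.

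**Figure D5:**
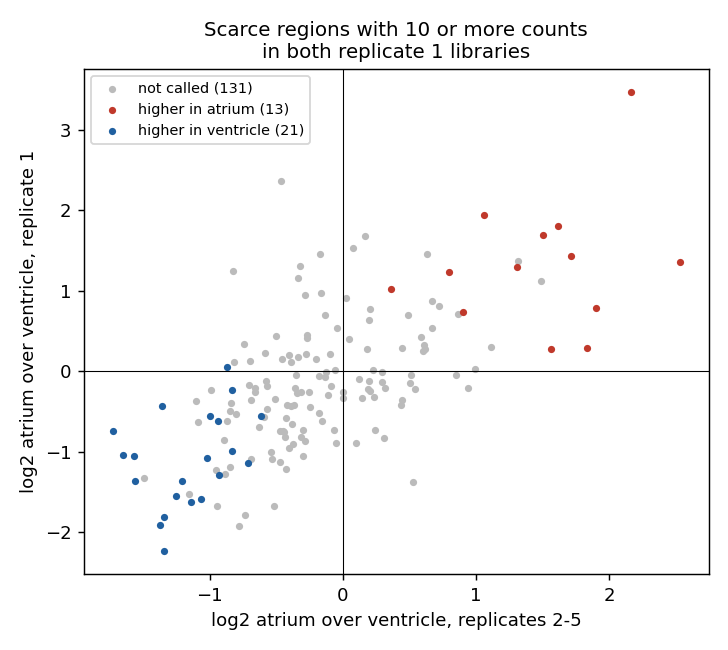
Log2 atrium over ventricle in replicate 1 (vertical) against replicates 2 to 5 (horizontal) for the 165 scarce regions with at least 10 counts in both replicate 1 libraries, colored by the call in replicates 2 to 5. Of 34 called regions, 33 lie on the same side of 0 in both.

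A protein-coding gene lay within 100 kb of 1056 (86.6%, against 91.0% of the remaining regions), 541 (44.4%, against 52.6%) had their midpoint inside a gene, and the median distance to a start site was 32.2 kb against 31.2 kb where one was known. The pool holds 201 pairs of adjoining regions, called tiles here. They were paired by position alone, and whether both belong to 1 element was not checked. In 77 pairs 1 tile was scarce and the other not, and of the 62 with both tested the scarce tile had the higher mean CPM in 12. The chamber differences of the 2 tiles correlated at 0.02 in these 62 pairs, at 0.07 in 15 tested pairs with both tiles scarce and at 0.06 in 96 pairs with neither. The sign was the same in 29, 7 and 52 pairs.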

How the data were processed

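The authors deposited raw counts, whole numbers for each 400 bp region in 15 libraries. The tools cutadapt 2.5 and Bowtie2 2.3.4.3 and build mm10 appear in the submitters' processing notes. No source used here says whether reads or collapsed molecular identifiers were counted, so limits at 3 counts cover counting error only. Groups and replicate numbers came from the labels. Region coordinates are 1-based. Genes are the nearest protein-coding bodies within 100 kb in RefSeq (GRCm38.p6), and strand and exons were not used.

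Scarce regions had a mean under 10 DNA counts. Atrial and ventricular replicates 2 to 5 were compared in R 4.3.3 with edgeR 4.0.16 (robust quasi-likelihood fit, TMM, no block) over all 3603 regions averaging 10 or more counts, with Benjamini-Hochberg adjustment. Within replicates 2 to 5, same-numbered atrial and ventricular deviations correlated at -0.015 to 0.0, under the criterion of 0.1 for using a block. Such values cannot tell whether same-numbered libraries came from the same mice. Over the scarce regions the 2 replicate 1 RNA libraries correlated with each other at 0.89.

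Regions named are the 8 largest called differences without overlap in each direction, the highest RNA levels (6 without and 4 with DNA counts), the smallest p per tag and direction, up to 3 per gene list, the 3 on each side of the limit, and those with a printed promoter. Of these, 1 is not reported here but stays in all counts. Alternatives were library totals, Neg scaling, DESeq2 1.42.0, limma 3.58.1 voom, other filters, all 5 replicates, a replicate block, other DNA limits and leaving out each library. The members, lists and rules were chosen with earlier results of these data known.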

Additional observations from a re-analysis of the deposited data

Results flagged for a closer look

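Among 110 groups of 4 libraries checked, 7 had 1 library far from the other 3. Chance alone gives about 1 in 20. Atrial replicate 5 stood at 94.9 CPM in the ESC-Neg region near Cyp3a13, against 10.6 to 14.5. Atrial replicate 4 stood at 41.5 CPM in the ESC-Neg region near Sall1, against 13.1 to 17.5. In the region inside Ldah atrial replicate 2 was low, at 36.7 CPM against 56.3 to 59.9. In the region inside Kif13a ventricular replicate 4 was high, at 10.3 CPM against 3.09 to 3.92. In the ESC-Neg region chr1:13872521-13872920 atrial replicate 3 was high, at 1.71 CPM against 0.461 to 0.593. Ventricular replicate 4 reached 478 CPM in the region inside Tmod1, against 414 to 424, and ventricular replicate 5 reached 164 CPM in the region inside Csrp3, against 93.7 to 104.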

How the results depend on the processing

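The 60 atrial and 118 ventricular calls among scarce regions became 98 and 64 when scaled on Neg regions and 11 and 26 with all 5 replicates. Leaving out each library in turn gave 37 to 66 and 70 to 111, lowest for both without ventricular replicate 2. The median log2 difference of -0.17 was -0.23 with library totals and 0.0 with Neg scaling. The share of RNA counts on scarce regions, 11.6% in atrium and 12.6% in ventricle, was 9.98% and 11.1% for a mean DNA count under 5, and 12.8% and 13.9% under 20. The replicate block gave 54 and 113 calls and kept 158 of 178, and whether same-numbered libraries share mice is not known. Of 38 named regions called, 6 kept call and sign in all 17 alternatives in which they had an adjusted p, and 28 in the 16 on replicates 2 to 5, 1 of which (a mean of at least 4 CPM, 60 and 117 calls) was chosen after seeing the data. Among the regions reported, Neg scaling ended the calls at Pdzd2, Itgb1 and Cyp39a1, voom those at Cyp3a13 and Cyp39a1, no filter those at Pdzd2 and Cyp39a1, and the block those at Ehd4, Pdzd2 and Cyp39a1. DESeq2 gave 6 of the 38 no adjusted p, among them those at Cyp3a13, Ehd4, chr1:13872521-13872920, Arid1b and Pdzd2, at log2 differences of 2.32, -3.22, -3.06, -2.98 and -1.8. No called named region changed sign in the alternatives run; some uncalled ones near 0 did. For the settings that moved a value the cause was not tested. Calls were fewer among scarce regions with few RNA counts.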
